A study of Saccharomyces cerevisiae with 8 samples.

Results

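The genes described here encode RNA polymerase II (RNAPII) and the general transcription factors (GTFs) of *Saccharomyces cerevisiae*, with TFIIF left out. They were taken by name from the table of gene counts, which holds 6120 genes, and 40 members were found. The members are 7 subunits found in RNAPII only, 4 of the subunits that RNAPII shares with RNAPI and RNAPIII (a further one, *RPC10*, is not a member), the TATA-binding protein TBP (*SPT15*), 2 subunits of TFIIA, TFIIB (*SUA7*), 2 subunits of TFIIE, 7 core and 3 kinase subunits of TFIIH, 8 TBP-associated factors (TAFs) of TFIID only, and 5 TAFs that TFIID shares with the co-activator SAGA. TFIIF, whose Tfg1 subunit is the protein altered in both Tfg1 strains, is not among the members, and its genes are given apart. Among the TFIIF genes, *TAF14* also encodes a component of TFIID, so the members do not hold every TAF.

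RNAPII transcribes all protein-coding genes, but it does not find promoters alone. TBP, as part of TFIID or delivered by SAGA, binds the promoter, TFIIA and TFIIB stabilize it and place the polymerase, TFIIF arrives bound to RNAPII, and TFIIE recruits TFIIH, which opens the DNA and phosphorylates the tail of the largest RNAPII subunit. Several of these proteins carry the small modifier SUMO, which Ubc9, the conjugating enzyme, attaches to lysines. The comparisons below ask whether the mRNA levels of this machinery differ when sumoylation is impaired in the whole cell or at Tfg1 only.

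Polyadenylated RNA was sequenced from 4 strains, with 2 libraries per strain, and all cultures were kept at 30°C in SC medium and harvested in mid-log phase. W303a is the unmodified parent. The *ubc9-6* strain carries repeated copies of *ubc9-1*, a weak allele, in tandem at the *UBC9* locus together with a *TRP1* marker, and serves as a strain of reduced sumoylation. The Tfg1-HA strain expresses HA-tagged Tfg1 from its own locus, beside a *TRP1* marker from *Kluyveromyces lactis*, and Tfg1-K60,61R-HA has in addition the pair of sumoylated lysines named in its label replaced by arginine. That strain also carries an inadvertent asparagine-to-glutamine substitution elsewhere in Tfg1, so its comparison with Tfg1-HA covers all these changes together. Marker, tag and mutation likewise cannot be told apart in the comparisons with W303a. The labels do not say whether the strains were grown and prepared together, and a difference in handling could not be told apart either.

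Library totals lay between 26674458 and 34614232 counts, and the 40 members together took between 0.418% and 0.433% of them. As a check of the labels, *UBC9* stood at 184 and 190 counts scaled to a library total of 1e6 (CPM) in *ubc9-6* and at 74.1 and 75.6 CPM in W303a. Both Tfg1-K60,61R-HA libraries stood apart from each other more than other replicates did: the SD of the log2 difference between replicates over the members was 0.11 in this strain and 0.04 to 0.06 in the others. Nothing in the labels says whether replicates came from separate cultures, so p-values measure only the spread between these libraries. All 40 members passed the filter on low counts, and the smallest count of a member in any library was 408, for *TFB5*.

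To set the members beside each other, CPM values were divided by coding length in kilobases to give a level per length (FPKM). In W303a the 4 members shared by the 3 nuclear RNA polymerases held the highest levels, and large TFIID and TFIIH subunits the lowest. The levels per length in the 2 W303a libraries were 618 and 605 FPKM for *RPB10*, a small zinc-binding subunit that helps assemble the polymerases. For *RPO26*, which encodes the shared subunit Rpb6, they were 499 and 484 FPKM. *RPB8* followed with 381 and 384 FPKM. *RPB5*, the fourth shared subunit, which contacts incoming DNA, had 358 and 341 FPKM, and *SPT15* came next with 278 and 283 FPKM. *RPC10*, the shared subunit outside the members, had 432 and 466 FPKM. None of the ranges of the members above overlapped, and the first 11 places in the order were each separate from the next.

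The 7 subunits found in RNAPII only spread over 3.52-fold in level per length, although the enzyme holds a single copy of each. *RPO21*, which encodes the largest subunit with the catalytic site and the phosphorylated tail, was the lowest of them at 67.0 and 71.0 FPKM. *RPB4*, which forms the stalk of the enzyme with Rpb7, was the highest at 251 and 234 FPKM. The spread depends in part on how length is counted: with 300 bases added to every coding length, the W303a means were 167 FPKM for *RPB4* and 65.2 FPKM for *RPO21*. Even the lowest of the 4 shared subunits stood 1.44-fold above *RPB4* in mean level per length.

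At the low end were *TAF1*, a scaffold subunit of TFIID, with 28.3 and 29.0 FPKM, and *TAF2*, a TFIID subunit that touches the initiator region of promoters, with 29.1 and 29.6 FPKM. *TFB1*, a scaffold subunit of the TFIIH core, had 30.9 and 30.7 FPKM. The median of the members was 77.0 FPKM and that of all 5909 genes tested was 45.9 FPKM, with 29 of 40 members above the latter. *SUA7* lay at 113 and 115 FPKM. Its range overlapped those of its neighbours *TAF9* and *RPB2*, as did 13 of the 39 neighbouring pairs in the order.

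**Figure D1:**
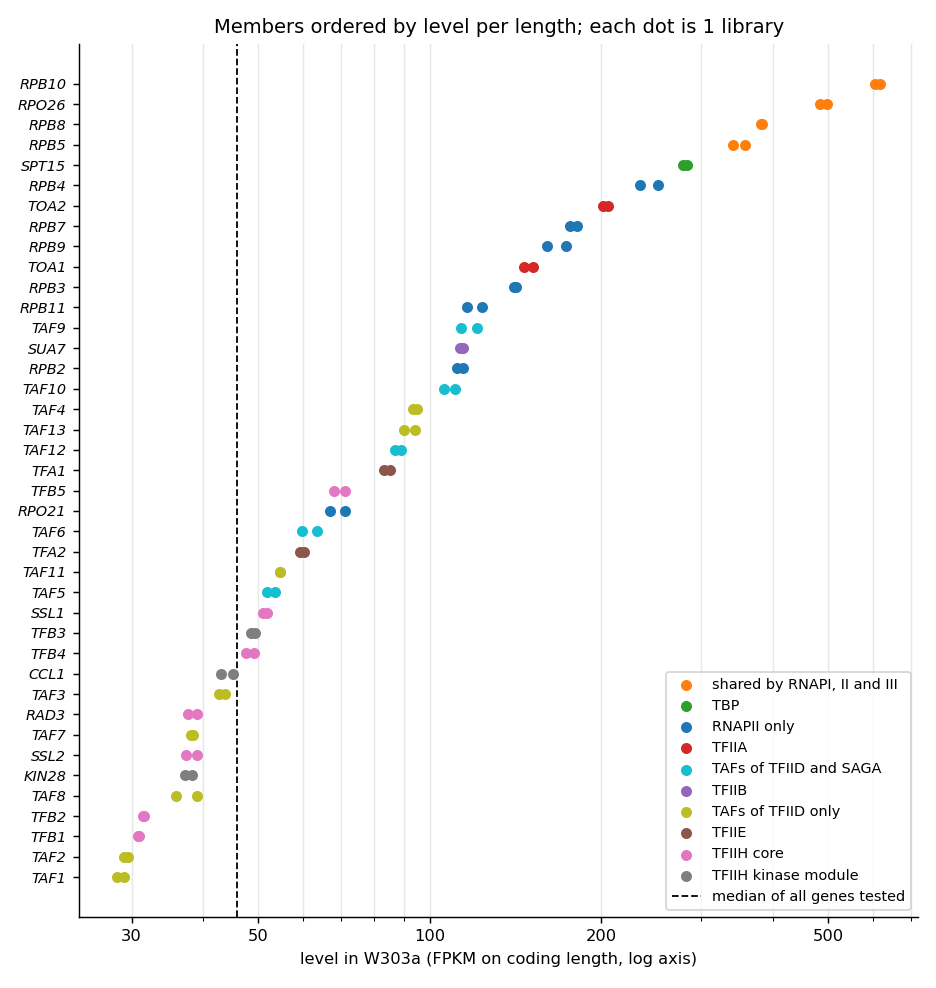
Level per length of the 40 members in W303a (FPKM on coding length, log axis), with 1 dot per library, coloured by complex. The 4 shared polymerase subunits among the members lie between 341 and 618 FPKM, above every other member, and the dashed line marks the median of all genes tested at 45.9 FPKM.

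The order hardly differed between strains: places 1 to 8 and the last 4 places were held by the same genes in all 4 strains, and the largest shift was 4 places, for *RAD3*, the TFIIH helicase known from DNA repair, and *KIN28*, the TFIIH kinase. Short genes stood higher in this order. The Spearman correlation of level per length with coding length across the 40 members was -0.72. A fragment that only partly overlaps a short coding sequence is still counted whole, and the annotation holds coding sequences without untranslated regions. The part of this counting in the correlation was not tested. With 300 bases added to every coding length, the shared subunits and *SPT15* still held the first 5 places, and *RPO26* came before *RPB10*. The Spearman correlation with coding length was then -0.55, and the ratio of the highest to the lowest member was 11.4 in place of 21.3.

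To examine the effect of reduced sumoylation in the whole cell, *ubc9-6* was compared with W303a. In *ubc9-6* 10 of 40 members (25%) fell and 0 rose (edgeR quasi-likelihood test over 5909 genes, adjusted p under 0.05). Of all genes tested, 9.36% fell and 11.4% rose. The members that fell were 3 of the 4 shared subunits (*RPB5*, *RPB8*, *RPB10*), 3 of the 7 subunits of RNAPII only (*RPB3*, *RPB7*, *RPB9*), TBP, and 3 of the 13 TAFs (*TAF1*, *TAF4*, *TAF5*). None of the TFIIA, TFIIB, TFIIE and TFIIH genes, 15 in all, passed the test. Of those with an estimate below 0, *TFA1* of TFIIE came nearest (log2 fold change -0.14, edgeR adjusted p = 0.0549). Its estimate was similar to those of the called *RPB3*, *RPB7* and *TAF1*. Each fall was small, at most 16.2%. The median log2 fold change of the members was -0.06, that of all genes -0.004, and 29 of 40 members had an estimate below 0.

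At all 4 shared subunits among the members both *ubc9-6* libraries lay below both W303a libraries, whereas *RPC10* overlapped. It had 92.1 and 99.2 CPM in W303a and 92.8 and 93.3 CPM in *ubc9-6* (log2 fold change -0.04, edgeR adjusted p = 0.760). Libraries of these 2 strains were often apart, at 32 of 40 members (24 below) and at 4217 of 5909 genes (2150 below). *RPB5* (YBR154C, chromosome II) had 232 and 221 CPM in W303a and 193 and 187 CPM in *ubc9-6*, a log2 fold change of -0.26 (95% interval -0.37 to -0.14, adjusted p = 0.0117, edgeR). *RPB10* (YOR210W, chromosome XV) had 132 and 129 CPM in W303a and 115 and 111 CPM in *ubc9-6*, a log2 fold change of -0.21 (interval -0.31 to -0.10, edgeR adjusted p = 0.0170). *RPB8* (YOR224C, chromosome XV) had 168 and 169 CPM in W303a against 150 and 146 CPM. The log2 fold change of *RPB8* was -0.19 (edgeR adjusted p = 0.0319). *RPO26* had 233 and 226 CPM in W303a and 209 and 196 CPM in *ubc9-6*, and its log2 fold change of -0.18 missed the threshold (edgeR adjusted p = 0.0523). In these bulk cultures a lower level in every cell and a loss from some of the cells cannot be told apart, and without a spike-in all values are relative to the total of counted mRNA.

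TBP fell by a similar amount. *SPT15* (YER148W, chromosome V) had 201 and 204 CPM in W303a, 175 and 169 CPM in *ubc9-6*, 201 and 203 CPM in Tfg1-HA and 203 and 210 CPM in Tfg1-K60,61R-HA. Both *ubc9-6* libraries thus lay below the other 6, a separation not counted over all genes. The log2 fold change of *SPT15* against W303a was -0.24 (interval -0.34 to -0.14, edgeR adjusted p = 0.00922), the smallest p among the members. *TAF4*, a TFIID subunit with a histone fold, behaved alike in its values, with 109 and 111 CPM in W303a against 95.8 and 95.2 CPM in *ubc9-6* (log2 fold change -0.20, edgeR adjusted p = 0.0143). *TAF5*, a WD-repeat TAF that sits in both TFIID and SAGA, had 128 and 124 CPM in W303a and 114 and 110 CPM in *ubc9-6* (log2 fold change -0.17, edgeR adjusted p = 0.0373). The fall of *TAF1* was smaller, at -0.14 on the log2 scale (edgeR adjusted p = 0.0446).

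Among subunits of RNAPII only, *RPB3*, which starts polymerase assembly together with Rpb11, had 136 and 135 CPM in W303a and 123 and 123 CPM in *ubc9-6* (log2 fold change -0.13, edgeR adjusted p = 0.0454). *RPB7* had 93.6 and 91.0 CPM against 84.9 and 83.3 CPM (-0.13, edgeR adjusted p = 0.0483). *RPB9*, a small subunit involved in start site choice and transcript cleavage, was named after its values were seen, with a log2 fold change of -0.19 (edgeR adjusted p = 0.0408). The estimates of *RPB11* and *RPO21* lay above 0, at 0.14 and 0.06, and neither passed the test (edgeR adjusted p = 0.201 and 0.448). *SSL2*, the TFIIH translocase that opens promoter DNA, came nearest to the threshold of the members with an estimate above 0, with 94.8 and 98.8 CPM in W303a and 109 and 106 CPM in *ubc9-6* (log2 fold change 0.15, edgeR adjusted p = 0.0521). *SUA7* showed no detectable difference, with 117 and 119 CPM in W303a and 118 and 112 CPM in *ubc9-6*, and an interval of the log2 fold change from -0.17 to 0.09.

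The Pearson correlation of the log2 fold change with log2 coding length was 0.18 across the 40 members and -0.08 across all genes tested. Without W303a replicate 1, or without *ubc9-6* replicate 2, 0 of the 10 members passed the test, although all kept their direction. Over all genes, 1229 were called with every library and 324 and 262 in these fits. With W303a replicate 2 left out 1 member (*RPB5*) remained, with *ubc9-6* replicate 1 left out 3 remained (*RPB5*, *RPB10*, *SPT15*), and with either Tfg1-HA library left out 5 remained. DESeq2 called 6 members, of which 5 were among the 10 and the other was *RPO26*. A fit of the 2 compared strains alone called 15 members, 14 lower and 1 (*SSL2*) higher.

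**Figure D2:**
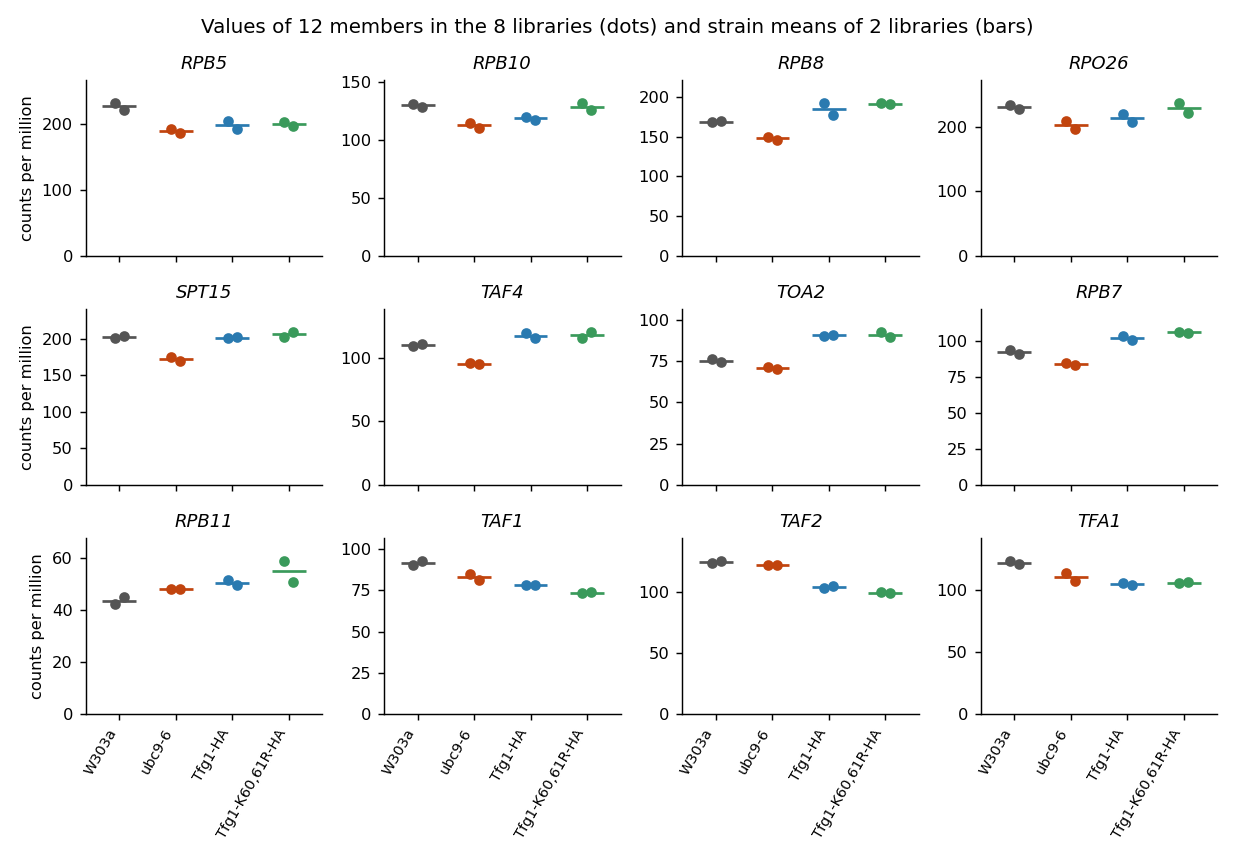
CPM (TMM-scaled) of 12 members in the 8 libraries, with 1 dot per library, replicate 1 on the left, and a bar at the mean of 2 libraries. *SPT15*, *RPB10* and *RPB8* are lowest in *ubc9-6*, and *TOA2*, *TAF2* and *TFA1* lie apart from W303a in both Tfg1 strains.

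The shared subunits had the lowest median log2 fold change in *ubc9-6* of the groups with more than 1 gene (-0.20), and the 300 bases before each start codon were searched for 4 short motifs on both strands. Promoters of genes for ribosome production often hold the RRPE, an A-rich element bound by Stb3, and the PAC box, an element named for RNA polymerases A (RNAPI) and C (RNAPIII). The RRPE core AAAAATTT was found in the 4 shared subunits among the members, in *SPT15* and in 12 of 40 members (30.0%), against 15.3% of 6118 such windows over all counted genes. The PAC core GATGAG was found in 0 of the 4 shared subunits and in 17.5% of the members, against 19.0% of all windows. TATAAA was found in 35.0% of the members against 48.6% of all windows, and TTACCCG, the core site of the general regulatory factor Reb1, in 10 of 40 members against 8.01% of all windows. The motifs were chosen after the fold changes were known, so the counts are a description. Matches to AAAAATTT on both strands overlap where AAAAATTTTT occurs, as before *RPO26*.

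The windows around the RRPE core are printed for the shared subunits, for *SPT15* and *RPB9*, which fell in *ubc9-6*, and for *SUA7*, which holds the core and was not called in any comparison. Each is a single window per gene, of 30 bases of the reference genome (R64, identical in coordinates to sacCer3 for all 40 members), read 5′ to 3′ on the strand of the gene, with the motif match in capitals. They lie at chrII:549159-549188 (*RPB5*, minus strand), chrXVI:911133-911162 (*RPO26*, plus), chrXV:761328-761357 (*RPB8*, minus), chrXV:738187-738216 (*RPB10*, plus), chrV:465010-465039 (*SPT15*, plus), chrVII:374932-374961 (*RPB9*, minus) and chrXVI:709966-709995 (*SUA7*, plus).
RPB5: cttttctcttgAAAAATTTtcaatcatata
RPO26: aattgaaaaAAAAATTTTTttttttttaag
RPB8: aaactaagatgAAAAATTTcagaatattta
RPB10: tatttggtaaaAAAAATTTcataagaaaaa
SPT15: tgggaaaagaaAAAAATTTgaagatctaca
RPB9: cgggtaagttgAAAAATTTtgttttggtga
SUA7: cttaaaaatcgAAAAATTTtgttataaatt

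Of the 12 members with the core, 5 fell in *ubc9-6* (41.7%), and of the 28 without it, 5 fell (17.9%). Over all genes tested the shares were 16.4% of 926 genes with the core and 8.05% of 4982 without it. The core was thus also present in members that did not pass the test, namely *RPO26*, *RPO21*, *SUA7*, *TFA1*, *SSL2*, *TAF6* and *TAF9*. Between Tfg1-HA and W303a, 3 of the 12 members with the core fell (25%) and 6 of the 28 without it (21.4%), while over all genes the shares were 41.3% and 17.9%.

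To see how these genes stand in the tagged strain, Tfg1-HA was compared with W303a, which also served as the control above. In Tfg1-HA 4 of 40 members (10%) rose and 9 (22.5%) fell, where 21.5% of all genes rose and 21.5% fell. The share of members that fell was near that of all genes, and the share that rose was below it. *TOA2* (YKL058W, chromosome XI), the small subunit of TFIIA, rose most, with 76.0 and 74.3 CPM in W303a and 89.9 and 91.0 CPM in Tfg1-HA (log2 fold change 0.27, interval 0.17 to 0.36, edgeR adjusted p = 0.00124). Its partner *TOA1*, named after its values were seen, had 126 and 131 CPM against 135 and 137 CPM and did not pass the test (log2 fold change 0.08, edgeR adjusted p = 0.348). The other members that rose were *RPB11* (0.21), *RPB7* (0.14) and *TFA2* (0.11), with edgeR adjusted p between 0.0202 and 0.0489.

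Of the 9 members that fell in Tfg1-HA, 3 encode TAFs of TFIID only. *TAF2* (YCR042C, chromosome III) had 123 and 125 CPM in W303a and 103 and 105 CPM in Tfg1-HA (log2 fold change -0.26, interval -0.34 to -0.17, edgeR adjusted p = 0.00120). *TAF1* (YGR274C, chromosome VII) had 90.5 and 93.0 CPM against 78.3 and 78.6 CPM (-0.23, edgeR adjusted p = 0.00321). *TAF7*, a further TFIID-only TAF, had 68.2 and 67.6 CPM against 59.9 and 56.1 CPM (-0.23, edgeR adjusted p = 0.00566). For each of these genes both Tfg1-HA libraries lay below both W303a libraries. Libraries of these 2 strains were apart at 28 of 40 members (13 below) and at 4566 of 5909 genes (2323 below). *TAF2* shares 70 of its 4224 coding bases with the neighbouring YCR041W, and it is the only member that overlaps another counted gene.

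TFIIE and TFIIH contributed further genes. *TFA1*, the large subunit of TFIIE, had 124 and 121 CPM in W303a and 106 and 104 CPM in Tfg1-HA (-0.22, edgeR adjusted p = 0.00510), while the small subunit *TFA2* rose from 58.6 and 59.5 to 63.5 and 64.1 CPM. *TFB1* had 59.6 and 59.3 CPM against 50.3 and 51.2 CPM (-0.23, edgeR adjusted p = 0.00951). *CCL1*, the cyclin of the TFIIH kinase Kin28, was named after its values were seen and stood at the threshold (-0.19, edgeR adjusted p = 0.0498). In RNAPII, *RPB5* (-0.19), *RPB10* (-0.13) and *RPB2* (-0.14), the second largest subunit, fell with edgeR adjusted p of 0.0149, 0.0464 and 0.0360. *SPT15*, with a log2 fold change of -0.008 (interval -0.11 to 0.09), and *SUA7*, with -0.04 (interval -0.17 to 0.09), did not pass the test.

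The 2 comparisons share the W303a libraries, so their values are given side by side. *RPB5*, *RPB10* and *TAF1* fell in both *ubc9-6* and Tfg1-HA. *RPB7* fell by 0.13 in *ubc9-6* and rose by 0.14 in Tfg1-HA, both on the log2 scale. *RPB8*, which fell in *ubc9-6*, had 193 and 177 CPM in Tfg1-HA against 168 and 169 CPM in W303a (log2 fold change 0.13, edgeR adjusted p = 0.0610).

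**Figure D3:**
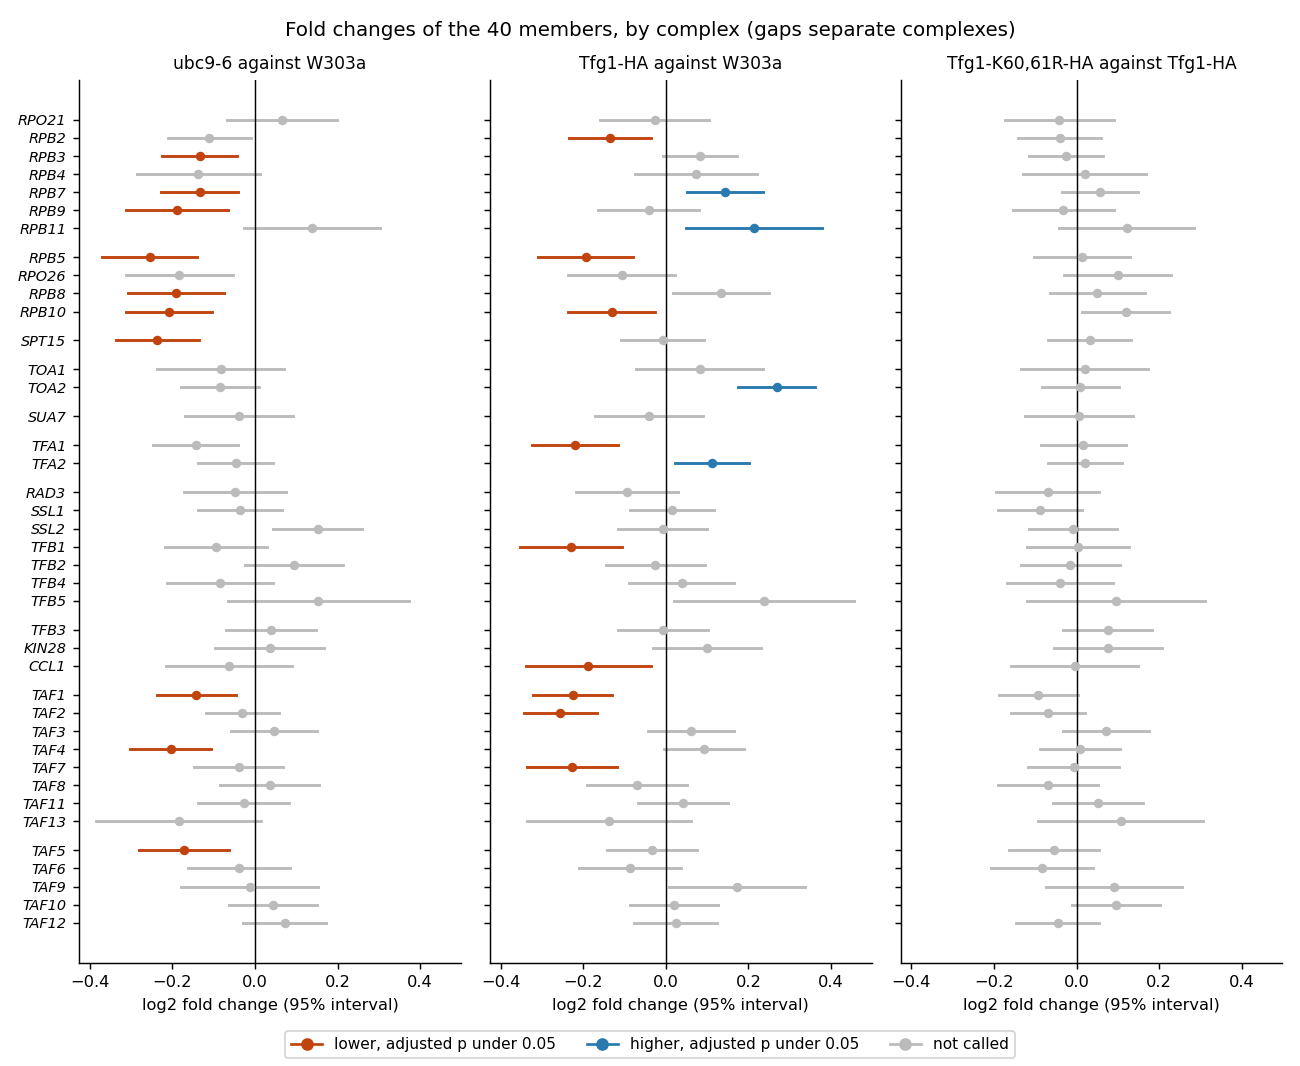
Log2 fold changes of the 40 members with 95% intervals (horizontal axis) in 3 comparisons, by complex. Red and blue mark genes with an edgeR adjusted p under 0.05, 10 lower in *ubc9-6*, 9 lower and 4 higher in Tfg1-HA, and 0 in Tfg1-K60,61R-HA.

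In Tfg1-HA the fold changes went with gene length. The Pearson correlation of the log2 fold change with log2 coding length was -0.52 across the 40 members and -0.18 across all 5909 genes tested (genes are not independent replicates). All 4 members that rose had coding sequences under 1000 bases, as did 2 of the 9 that fell. Of the 19 members this short, 21.1% rose and 10.5% fell. Over all genes tested, 27% of those under 1000 bases rose and 12.9% fell, against 17.8% and 27.4% of longer genes. After each library's trend with length and GC content was removed, an alternative chosen after seeing the data, *RPB11* (0.02), *RPB7* (0.08), *TFA2* (0.09) and *RPB2* (-0.04) no longer passed the test, nor did *CCL1*. *TOA2* then stood at 0.17, *TAF2* at -0.14 and *TAF1* at -0.12 and still passed it, while *RPB10* moved to -0.25. *TOA2*, *TFA1*, *TAF1* and *TAF2* kept their call whichever single library was left out. With *TAF7* the call was lost only without Tfg1-HA replicate 2. Leaving out any 1 library of W303a or Tfg1-HA left 6 members called (with Tfg1-HA replicate 2 left out, 5 of the 13 and *RPB8*), and leaving out *ubc9-6* replicate 1 left 8.

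The main question for Tfg1 is whether loss of its sumoylated lysines changes these mRNAs, and Tfg1-K60,61R-HA was therefore compared with Tfg1-HA. None of the 40 members was called by edgeR's quasi-likelihood test, and 0% of all genes were called. At an unadjusted p under 0.05 there was 1 member, *RPB10*, among 572 genes. With DESeq2, which gave an adjusted p to 869 genes and to 2 of the members, 34 genes and 0 members were called. The estimates were small. All 40 intervals lay within 1.5-fold, as did 91.1% of those of all genes, and the bound farthest from 0 among the members was 1.24-fold, for *TFB5*. The median absolute log2 fold change was 0.05 for the members and 0.06 for all genes.

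The largest estimates were those of 3 short genes. *RPB11* had 51.7 and 49.6 CPM in Tfg1-HA and 59.0 and 51.0 CPM in Tfg1-K60,61R-HA (log2 fold change 0.12, interval -0.04 to 0.28, edgeR adjusted p = 0.572). *RPB10* had 120 and 118 CPM against 132 and 126 CPM (0.12, interval 0.01 to 0.22, edgeR adjusted p = 0.493). *TAF13*, a histone-fold TAF of TFIID, had 42.7 and 41.8 CPM against 49.9 and 40.9 CPM (0.11, interval -0.09 to 0.31, edgeR adjusted p = 0.673). Of these genes, only *RPB10* had libraries that did not overlap between the strains. Such separation was seen at 18 of 40 members (45%), 9 in each direction, and at 35.8% of all genes. *RPO21* had 348 and 356 CPM in Tfg1-HA and 324 and 360 CPM in Tfg1-K60,61R-HA, which overlapped (-0.04, interval -0.17 to 0.09), and *SPT15* stood at 0.03 (interval -0.07 to 0.13).

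Here too the estimates went with length, both among the members and over all genes. The Pearson correlation of the log2 fold change with log2 coding length was -0.74 across the members (Spearman -0.76) and -0.12 across all genes (Spearman -0.29). Fold changes spread more over all genes (SD 0.22) than over the members (SD 0.06), so the sizes of these correlations are not directly comparable. The median log2 fold change was 0.06 in the 19 members under 1000 bases and -0.04 in the 21 longer ones. Over all genes tested it was 0.04 under 1000 bases and -0.02 in longer genes. The same direction was seen between the replicates of Tfg1-K60,61R-HA: replicate 1 exceeded replicate 2 at 15 of the 19 shorter members and at 9 of the 21 longer ones, and the difference between these libraries had a correlation of -0.54 with log2 length across the members. Between the replicates of W303a that correlation was -0.40, of Tfg1-HA -0.25 and of *ubc9-6* 0.25. Over all genes tested the replicate differences had correlations of -0.18 in Tfg1-K60,61R-HA, -0.16 in W303a, 0.04 in Tfg1-HA and 0.11 in *ubc9-6*. After removal of the trends with length and GC content, the correlation of the fold change with length across the members was -0.30. The part of the replicate difference in this pattern was not tested.

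**Figure D4:**
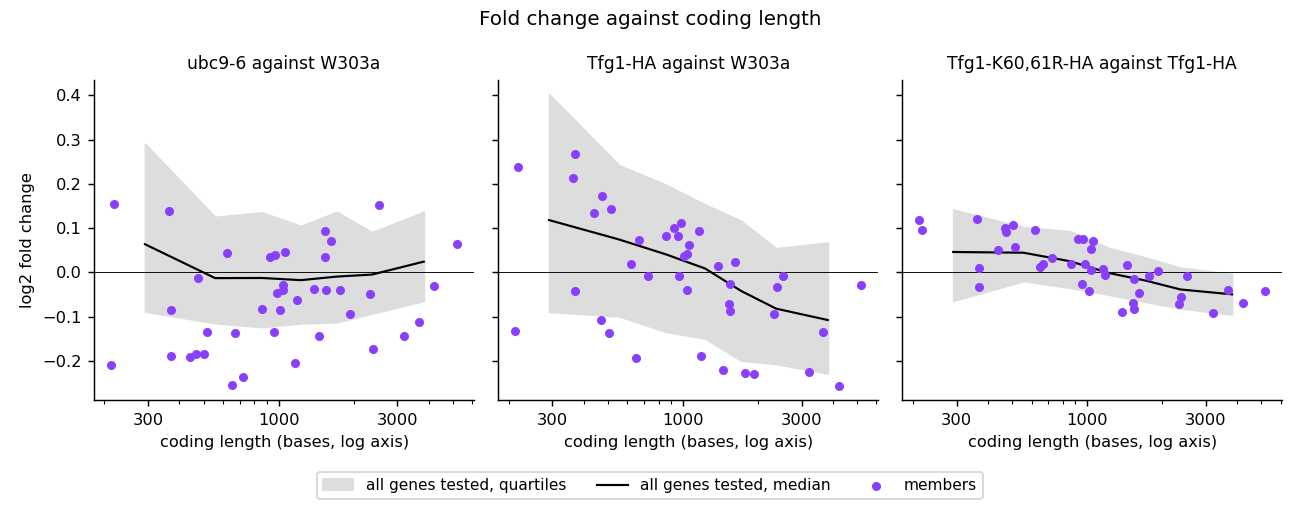
Log2 fold change against coding length (log axis) for the 40 members (dots) and all genes tested (line, median; grey band, quartiles) in 3 comparisons. Members under 1000 bases have a median of 0.06 and longer members one of -0.04 in Tfg1-K60,61R-HA against Tfg1-HA. All genes tested have medians of 0.04 and -0.02 in these length classes.

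Of the 3 largest estimates, those of *RPB11* and *TAF13* depended on replicate 1. Without Tfg1-K60,61R-HA replicate 2, *RPB11* and *TAF13* were called higher, at 0.22 and 0.24 on the log2 scale, and 446 of all genes were called. Without replicate 1, *TAF13* stood at -0.045 and *RPB11* at 0.01, whereas *RPB10* stood at 0.08.

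The effect of *ubc9-6* was then compared directly with that of the Tfg1 mutation, as the difference of the log2 fold changes against their own controls, W303a and Tfg1-HA. The effects differed at 2 members, where 2.86% of all genes were called lower and 3.22% higher. For *RPB10* the difference was -0.33 (interval -0.48 to -0.18, edgeR adjusted p = 0.0270), from -0.21 in *ubc9-6* and 0.12 in Tfg1-K60,61R-HA. For *SPT15* it was -0.27 (interval -0.41 to -0.13, edgeR adjusted p = 0.0439), from -0.24 and 0.03. The other shared subunits among the members had differences of -0.28 (*RPO26*), -0.27 (*RPB5*) and -0.24 (*RPB8*), with edgeR adjusted p between 0.0650 and 0.0880, and *RPC10* had one of -0.18 (edgeR adjusted p = 0.430). With any 1 library of W303a, *ubc9-6* or Tfg1-HA left out 0 members were called, and without Tfg1-K60,61R-HA replicate 2 there were 5.

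Taking all 4 strains at once, 19 of 40 members differed somewhere among the strains (edgeR quasi-likelihood test), where 57.6% of all genes did. The call was made for 5 of 7 subunits of RNAPII only, 3 of 4 shared subunits, TBP, *TOA2*, both subunits of TFIIE, 2 of 7 TFIIH core genes (*TFB1*, *SSL2*), 4 of 8 TAFs of TFIID only, and *TAF9* among the 5 shared TAFs. *SSL2*, *RPB4* and *TAF9* were called here and in no pairwise comparison. *RPB4* had 150 and 144 CPM in *ubc9-6* and 183 and 162 CPM in Tfg1-K60,61R-HA, with the other 4 libraries between 156 and 171 CPM. *TAF9*, a histone-fold TAF, had 53.8 to 57.5 CPM in W303a and *ubc9-6* and 61.2 to 71.5 CPM in the Tfg1 strains, which did not overlap. How many of all genes were apart in this way was not counted. In all, 22 of 40 members passed a test in some comparison and 18 in none, among them *RPO21*, *SUA7* and the kinase *KIN28*. The same count was not made over all genes, of which the test over all strains alone called 57.6%, so the 22 is a description only. The 19 members called over all strains became 11 without W303a replicate 1, 12 without *ubc9-6* replicate 2 and 29 without Tfg1-K60,61R-HA replicate 2.

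Of the 10 TFIIH genes, none passed the test in *ubc9-6* and 2 fell in Tfg1-HA (*TFB1*, *CCL1*). The core genes are the scaffold *TFB1*, the helicases *RAD3* and *SSL2*, the ring-finger subunit *SSL1*, and *TFB2*, *TFB4* and *TFB5*. The kinase module consists of *KIN28*, its cyclin *CCL1* and the assembly factor *TFB3*. Their levels per length in W303a had a median of 38.4 FPKM in the core and 44.1 FPKM in the kinase module. *KIN28* and *RAD3* were named after their values were seen. *KIN28*, which phosphorylates the RNAPII tail, had 34.2 and 35.2 CPM in W303a, 36.7 and 34.6 CPM in *ubc9-6*, 36.9 and 37.6 CPM in Tfg1-HA and 40.4 and 38.1 CPM in Tfg1-K60,61R-HA. All 4 Tfg1 libraries lay above the W303a libraries, a separation not counted over all genes. No comparison of *KIN28* passed the test (edgeR adjusted p = 0.190 for Tfg1-HA against W303a). *RAD3* had 91.3 and 88.0 CPM in W303a, 87.9 and 85.5 CPM in *ubc9-6*, 84.5 and 83.5 CPM in Tfg1-HA and 75.9 and 84.2 CPM in Tfg1-K60,61R-HA. The lowest value came from replicate 1 of the mutant, and no comparison of *RAD3* passed the test.

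The 5 TAFs shared by TFIID and SAGA held more mRNA per length than the 8 TAFs of TFIID only, with medians of 88.1 and 40.8 FPKM in W303a, although both groups spread widely (52.7 to 117 and 28.7 to 94.3 FPKM). In *ubc9-6* 1 of the shared TAFs (*TAF5*) and 2 of the TFIID-only TAFs (*TAF1*, *TAF4*) fell. In Tfg1-HA none of the shared TAFs and 3 of the TFIID-only TAFs (*TAF1*, *TAF2*, *TAF7*) fell, and the difference between these groups was not tested. *TAF12* and *TAF10*, histone-fold TAFs of both complexes, were named after their values were seen. *TAF12* had 144 and 141 CPM in W303a, 152 and 148 CPM in *ubc9-6*, 148 and 142 CPM in Tfg1-HA and 141 and 141 CPM in Tfg1-K60,61R-HA. *TAF10* ranged from 65.7 to 75.1 CPM over the 8 libraries. Neither passed a test in any comparison.

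The partners of this machinery were counted in the same way. Of TFIIF, *TFG1* itself had 196 and 201 CPM in W303a, 172 and 167 CPM in Tfg1-HA and 160 and 161 CPM in Tfg1-K60,61R-HA. It fell in Tfg1-HA against W303a (-0.23, edgeR adjusted p = 0.00313), and the mutant did not differ detectably from Tfg1-HA (-0.08, edgeR adjusted p = 0.556). *TFG2* and *TAF14* passed no pairwise test.

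In *ubc9-6* 5 of 14 SAGA genes without TAFs fell and 0 rose. The smallest p was that of *SGF29*, a histone reader of SAGA (-0.21, edgeR adjusted p = 0.0193), and the largest fall that of *ADA2*, an adaptor of its acetyltransferase module (-0.24). Of 15 elongation factors 2 fell, with the Paf1 complex subunit *LEO1* at -0.18 (edgeR adjusted p = 0.0274), and of 25 Mediator genes 1 rose, *SSN2* of the kinase module (0.19, edgeR adjusted p = 0.0277). No gene passed among 3 TBP regulators, 9 kinases and phosphatases of the RNAPII tail, and 6 RNAPII assembly and import factors. In Tfg1-HA against W303a 5 of the 6 assembly and import factors fell, among them the GTPase *GPN3* (-0.26, edgeR adjusted p = 0.00356). *MOT1*, which removes TBP from DNA, fell by 0.30 (edgeR adjusted p = 0.00468), and *ESS1*, the prolyl isomerase of the RNAPII tail, rose by 0.42 on the log2 scale (edgeR adjusted p = 0.000874). *SSU72*, in the same list of genes for the RNAPII tail, had a larger estimate (0.50), with means of 24.2 CPM in W303a and 34.3 CPM in Tfg1-HA. SAGA had 5 lower and 1 higher, Mediator 2 lower and 3 higher, and the elongation factors 3 lower and 1 higher. The genes with the smallest p in these lists were *NGG1* (-0.25), *SRB4* (-0.18) and *LEO1* (-0.26). *ELA1*, an elongin A homologue, fell more than *LEO1* (-0.38, edgeR adjusted p = 0.00736). None of these 76 genes was called between Tfg1-K60,61R-HA and Tfg1-HA.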

How the data were processed

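Polyadenylated RNA of 4 yeast strains, 2 libraries each, was sequenced from strand-specific libraries. The submitters' processing notes name HISAT2 2.1.0, featureCounts (Subread 2.0.0) and sacCer3. Fragments were counted on coding exons without strand information, and the authors deposited whole-number counts for 6120 genes without normalization. A pair of edgeR 3.32.1 tables with log2 fold changes and p-values of the authors was not used.

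A model with a mean for each strain was fitted in edgeR 4.0.16 (R 4.3.3) over the 8 libraries, with TMM factors (0.977 to 1.033), the default low-count filter (5909 genes kept) and the quasi-likelihood test. Benjamini-Hochberg adjustment ran over all genes tested, with a threshold of 0.05, and 95% intervals came from the same model. CPM values are TMM-scaled, and FPKM values are these CPM per kilobase of coding length. Permuting 2 against 2 libraries cannot give a two-sided p below 0.333. Replicates differed by more than counting error (chi-square per degree of freedom 6.40 to 35.9).

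The members and lists were chosen with earlier results of these data known. Genes named are up to 20 members called (those with the smallest p over all strains), the 3 largest estimates where none was called, the 3 highest and 3 lowest levels in W303a, *RPO21*, *SPT15*, *SUA7*, *TFG1*, *TFG2*, *TAF14*, *RPC10* and the called gene with the smallest p in each further list. Other genes given with values, such as *RPB9*, *CCL1*, *TOA1*, *KIN28*, *RAD3*, *TAF10*, *TAF12*, *ADA2*, *ELA1* and *SSU72*, were chosen after their values were seen. Sequences and gene positions came from the R64 reference, and BLAST 2.17.0 found no near-identical copy of a member. The fits were tested on simulated data with planted changes larger than any called in a member, so changes as small as those of the members were not covered. Alternatives were RLE normalization, no filter, at least 10 counts in every library, the edgeR likelihood ratio test, DESeq2 1.42.0, the replicate number as a block, the compared strains alone, each library left out and, chosen after seeing the data, removal of length and GC trends, fits without Tfg1-K60,61R-HA, a crossed block and 300 bases added to coding lengths.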

Additional observations from a re-analysis of the deposited data

Results flagged for a closer look

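The effects of *ubc9-6* and of the Tfg1 mutation differed at 2 of 40 members (5%) by the test of the difference itself. The share of all genes called in this test was 6.08%, so the count of members was near that of genes in general. For *RPB10* the difference of the log2 fold changes was -0.33 (edgeR adjusted p = 0.0270), with both *ubc9-6* libraries below both W303a libraries and both Tfg1-K60,61R-HA libraries above both Tfg1-HA libraries. For *SPT15* it was -0.27 (edgeR adjusted p = 0.0439), with both *ubc9-6* libraries below W303a. With length and GC trends removed the values were -0.32 and -0.23, and the latter no longer passed the test (edgeR adjusted p = 0.0363 and 0.0893).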

How the results depend on the processing

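RLE normalization and other low-count filters changed no call in *ubc9-6* and at most 2 in Tfg1-HA. For *ubc9-6* against W303a, members called numbered 10 in the report and 6 with DESeq2. With the compared strains alone 15 members (14 lower, 1 higher) and 2090 genes were called. Without both Tfg1-K60,61R-HA libraries 15 members (14 lower, 1 higher) and 1935 genes were called. With length and GC trends removed 12 members were called (11 lower, 1 higher). The member called higher in these fits was *SSL2*. Between Tfg1-K60,61R-HA and Tfg1-HA, the edgeR likelihood ratio test called 3 genes and DESeq2 34. For the difference between the effects, DESeq2 called 4 members, and 1 was called with length and GC trends removed. The causes were not tested.

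The same replicate number is not said to mark a shared culture or day, and the replicate differences of the compared strains had correlations of -0.19, 0.02 and 0.12 over all genes, so the samples were not paired. With the replicate block, 6 members and 1107 genes were called in *ubc9-6*, 12 members in Tfg1-HA and 0 in Tfg1-K60,61R-HA, and the call of *SPT15* in the difference was lost. With the numbers crossed, 8 members and 1282 genes were called in *ubc9-6*.

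With 1 library left out, where the lone library of a strain is assumed to vary like the others, *ubc9-6* had 0 to 15 members and 262 to 1921 genes called, and Tfg1-HA 6 to 17 members and 1560 to 3031 genes. Tfg1-K60,61R-HA had 0 to 2 members and 0 to 446 genes, and *TAF13* ranged from -0.045 to 0.24. The difference had 0 to 5 members and 94 to 672 genes, and the test over all strains 11 to 29 members.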
